A study of Mus musculus with 29 samples.

Results

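Foxa2, Sox9 and Spdef are transcription factors of gland and secretory epithelium. They were followed in the uterus of female CD-1 mice given the soy isoflavone genistein (GEN) or corn oil alone (CON) as newborns, with genistein at 50 mg/kg on each of postnatal days 1 to 5. RNA was taken from the uterus on gestation day (GD) 1.5, 3.5, 4.5 or 5.5 and read on single-colour Agilent arrays. The groups held 4 GEN and 3 CON arrays at GD1.5, 3 GEN and 3 CON arrays at GD3.5, and 4 GEN and 4 CON arrays at each of GD4.5 and GD5.5, 29 in all. These 3 genes of the 27670 gene names on the array were found by symbol or accession, and 5 of the 41174 probes read them. They were picked because they were already known to be lower in GEN uteri in these data, so the differences between exposures are given as a description with no p, as is how they differ between days, while changes between days within an exposure and relations among the 3 genes inside groups were tested. The changes between days use the same arrays as the differences that picked the genes, and their p-values do not allow for that choice. Whether the samples of a group came from separate females is not given in the labels, so the p-values cover sample-to-sample spread, which may be technical.

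Uterine glands bud from the epithelium after birth and, in adult pregnancy, secrete factors into the lumen that implantation needs. FOXA2, a forkhead protein, is made in the glandular and not in the luminal epithelium of the adult mouse uterus and is required there for gland formation and for gland secretion. SOX9, a high-mobility-group protein known from cartilage, testis, hair follicle and many ducts, is found in uterine glands. SPDEF, of the ETS family, drives the differentiation of mucus-secreting cells in the airway and the intestine. Because the arrays read RNA of whole uterus, fewer gland cells and less RNA per gland cell cannot be told apart.

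The probes set what is measured, so the start of each is shown, 5′ to 3′ and in lower case. The array design places them on mouse build mm7. The Foxa2 probe (minus strand, chr2:147783819-147783878) was printed as 10 spots. Spdef has 1 probe and 1 spot (minus strand, chr17:25900336-25900395). Sox9 has 3 probes on the plus strand. The brightest of them, which stands for the gene below, has 1 spot (chr11:112894739-112894798), another has 10 spots (chr11:112896540-112896599), and the dim one, printed whole, has 60 bases that spread over 853 bases of genome (chr11:112892041-112892893). The first 30 of 60 bases are given for the others.
Foxa2: ccattctggacatggtgaaatccaggtctc
Sox9, brightest: ttccaggagagagactttaagactttgtct
Sox9, 10 spots: ataaaaccttaaagcgttcttataatatgg
Sox9, dim: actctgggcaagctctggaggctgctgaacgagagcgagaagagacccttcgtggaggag
Spdef: aacccaaggtcccagatagacagccactga

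Levels are log2 processed intensities relative to each array's own 75th percentile, so 0 marks that percentile and 1 unit is a doubling. Spots well above background made up 71.3 to 78.1% of the 13 arrays of GD1.5 and GD3.5 and 65.5 to 80.9% of the 16 arrays of GD4.5 and GD5.5. The first set lay on slides 1 to 4 and the second on slides 5 to 8, so levels set across GD3.5 and GD4.5 also cross a change of slides. All 12 simple epithelium markers, all 7 stroma markers and all 8 smooth muscle markers were detected in every group.

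Foxa2 was lower in every GEN array than in any CON array on GD1.5, GD3.5 and GD4.5, and fell in CON uteri on GD5.5. At GD1.5 its level was 0.48, -1.16, 0.15 and 0.59 in GEN uteri, against 2.05, 1.71 and 1.79 in CON uteri. At GD3.5 it was -0.75, 0.74 and 0.92 in GEN uteri, against 1.83, 1.80 and 1.70 in CON uteri. The CON arrays stood close together on both days and the GEN arrays were spread, with 1 low array each time. At GD4.5 the level was -0.89, -1.49, -0.42 and -0.066 in GEN uteri, against 1.26, 0.72, 1.13 and 1.05 in CON uteri. At GD5.5 it was -1.87, -2.47, -0.89 and -1.84 in GEN uteri, against -1.59, -1.17, -0.99 and -1.18 in CON uteri. On that last day the groups overlapped, since the highest array of all 8 was a GEN array. Over all genes tested, the groups stood apart with GEN lower for 4.80% at GD1.5, 12.4% at GD3.5, 2.88% at GD4.5 and 0.835% at GD5.5, and since these contrasts chose the gene nothing is read from its own separation.

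**Figure D1:**
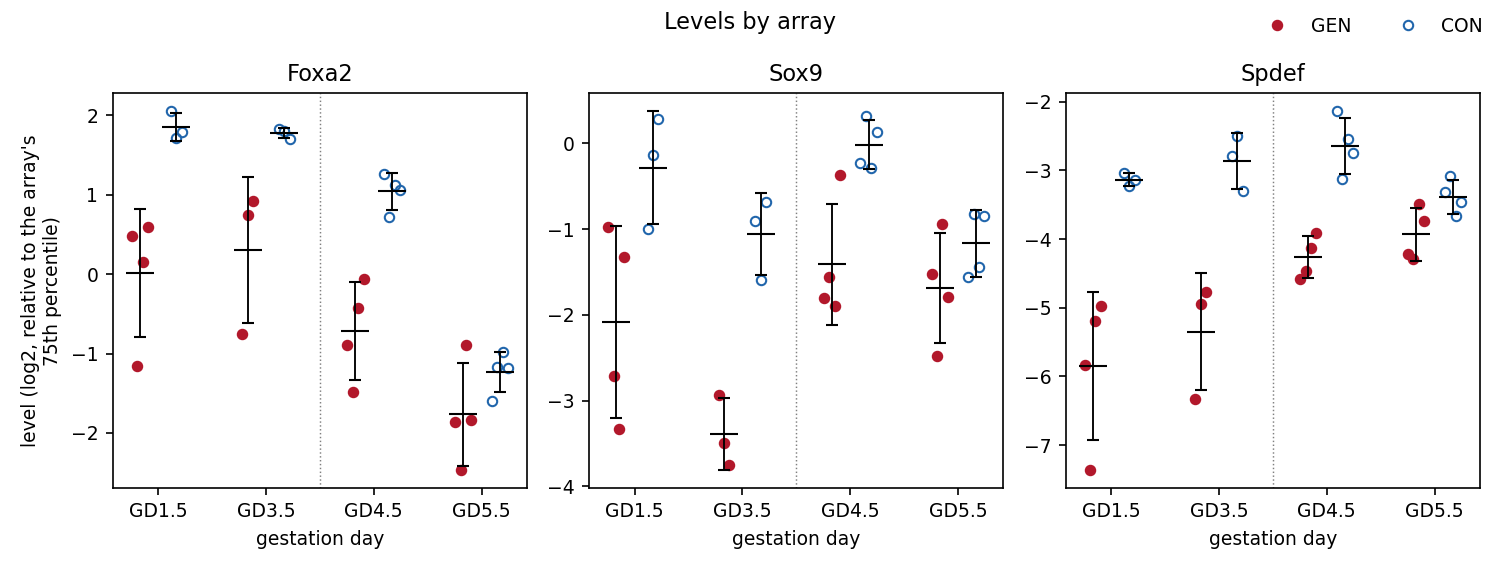
Levels of Foxa2, Sox9 (brightest probe) and Spdef on each array (points), by gestation day, with GEN (filled) left of CON (open). Bars are the mean and SD of a group, the vertical scale is log2 relative to the 75th percentile of the array, and the dotted line marks the change of slides. Foxa2 in CON stood at 1.85 on GD1.5 and at -1.23 on GD5.5.

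The mean Foxa2 level was 0.0145 ± 0.80 in GEN and 1.85 ± 0.17 in CON at GD1.5 (SD, n = 4 and 3), a GEN minus CON difference of -1.84 (standard error 0.41, 95% interval -2.68 to -0.99). At GD3.5 the means were 0.30 ± 0.92 and 1.78 ± 0.066 in GEN and CON (n = 3 each), a difference of -1.48 (-2.38 to -0.57). At GD4.5 they were -0.72 ± 0.61 and 1.04 ± 0.23 in GEN and CON (n = 4 each), a difference of -1.76 (-2.54 to -0.97). GEN uteri thus had between 2.78-fold and 3.57-fold less Foxa2 signal on these days. At GD5.5 they were -1.77 ± 0.65 and -1.23 ± 0.26, a difference of -0.53 (-1.32 to 0.25). Inside slides that held both exposures the Foxa2 difference ran between -3.20 and -1.61 at GD1.5, between -2.58 and -0.88 at GD3.5, and between -2.61 and -1.48 at GD4.5, and at GD5.5 it was negative on 2 of 3 slides (-1.30 to 0.21). The repeated spots of the probe gave a median SD of 0.0461 within an array.

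Spdef was lower in every GEN array than in any CON array on GD1.5, GD3.5 and GD4.5. Its level at GD1.5 was -5.84, -7.36, -5.20 and -4.98 in GEN uteri, against -3.03, -3.23 and -3.14 in CON uteri. At GD3.5 it was -6.33, -4.94 and -4.77 in GEN uteri, against -2.79, -2.51 and -3.30 in CON uteri. The probe is dim, and on the GEN array at -7.36 it was not well above background, the only array of the 29 where this was so. At GD4.5 the level was -4.58, -4.46, -4.13 and -3.90 in GEN uteri, against -2.14, -3.12, -2.55 and -2.75 in CON uteri. At GD5.5 it was -4.21, -4.29, -3.48 and -3.73 in GEN uteri, against -3.31, -3.09, -3.67 and -3.46 in CON uteri. The groups stood apart on the first 3 days and overlapped on the last. Over all genes tested, 4.80%, 12.4% and 2.88% stood apart with GEN lower on the first 3 days. Since these contrasts chose Spdef too, nothing is read from its separation.

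GEN minus CON of Spdef was -2.71 (standard error 0.42, 95% interval -3.57 to -1.85) at GD1.5, -2.48 (-3.40 to -1.56) at GD3.5, -1.63 (-2.42 to -0.83) at GD4.5 and -0.55 (-1.35 to 0.25) at GD5.5. Without GD1.5 GEN 2, the array below background, the GD1.5 value was -2.20, and no fold is given. Within slides the difference was negative on every slide that held both exposures of a day, between -4.33 and -2.01 at GD1.5 and between -1.20 and -0.27 at GD5.5. Its size depends on the background correction: with the normexp method the GD1.5 difference was -1.43 and the GD5.5 difference was 0.79.

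Sox9 was lowest in GEN uteri at GD3.5. By its brightest probe the level at GD1.5 was -0.98, -2.71, -3.33 and -1.32 in GEN uteri, against -1.0, -0.13 and 0.28 in CON uteri. At GD3.5 it was -2.93, -3.49 and -3.75 in GEN uteri, against -0.90, -1.60 and -0.68 in CON uteri. The groups met at GD1.5, where 1 GEN array and 1 CON array had nearly the same level, and stood well apart at GD3.5. At GD4.5 it was -1.81, -1.56, -1.90 and -0.38 in GEN uteri, against -0.23, 0.31, -0.28 and 0.13 in CON uteri. At GD5.5 it was -1.53, -2.48, -0.94 and -1.79 in GEN uteri, against -1.56, -0.82, -1.44 and -0.85 in CON uteri. The groups did not overlap at GD4.5, where 1 GEN array came close to CON, and overlapped at GD5.5. Over all genes tested, 4.80% stood apart with GEN lower at GD1.5, 12.4% at GD3.5 and 2.88% at GD4.5. Sox9 was also chosen on these contrasts, so nothing is read from its separation by any probe.

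GEN minus CON of Sox9 was -1.80 (standard error 0.48, 95% interval -2.79 to -0.81) at GD1.5, -2.33 (-3.39 to -1.27) at GD3.5, -1.39 (-2.31 to -0.48) at GD4.5 and -0.52 (-1.43 to 0.40) at GD5.5. Inside slides it was negative on every slide on the first 3 days, and at GD5.5 it ran between -1.66 and 0.33. The probe with 10 spots gave -1.99, -2.40, -1.65 and -0.34 on the 4 days and separated the exposures on the first 3, GD1.5 included. Its level at GD3.5 was -3.69 ± 0.29 in GEN and -1.29 ± 0.57 in CON (SD, n = 3 each). The dim probe was well above background on 22 of the 29 arrays, and on none of the GD3.5 GEN arrays, so no fold is given for it there. At GD4.5, where all 8 arrays measured it, its difference was -0.72, and at GD5.5 it was 0.039 with the groups overlapping. Where the probes lie along the transcript was not analysed here.

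**Figure D2:**
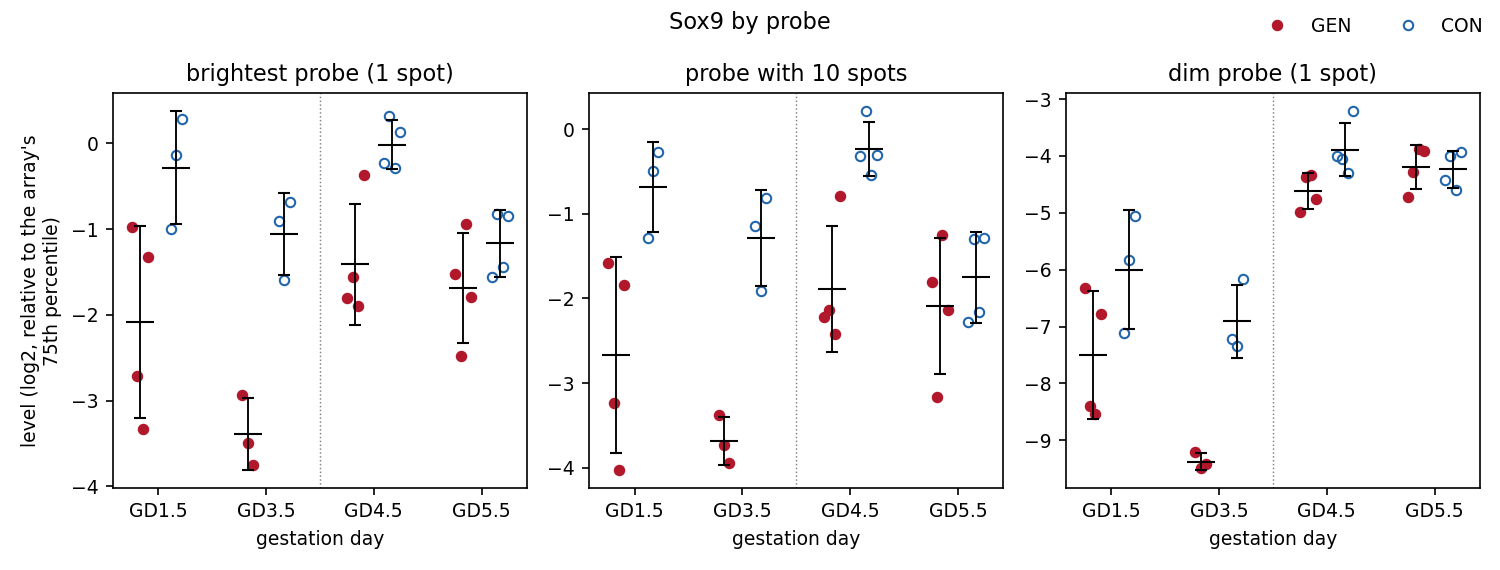
The 3 Sox9 probes on each array (points), by gestation day, with GEN (filled) left of CON (open), bars for mean and SD, and a vertical log2 scale of its own in each panel. The brightest probe and the probe with 10 spots gave GD3.5 differences of -2.33 and -2.40, while the dim probe did not pass the scanner's background test on the 3 GEN arrays of that day.

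Over all genes tested, 0.0975% were called at GD1.5, 0.103% at GD3.5, 0.116% at GD4.5 and 0% at GD5.5 in either direction (limma, adjusted p under 0.05). Of the 3 members, 1 (Spdef) was called on GD1.5 and GD3.5, and 0 on the later days; since the members were picked on these contrasts, nothing is read from that count. At GD5.5 limma called 0 of 20826 genes and 1125 had an unadjusted p under 0.05. The median GEN minus CON difference over all genes was between -0.0358 and -0.0055 on each day.

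**Figure D3:**
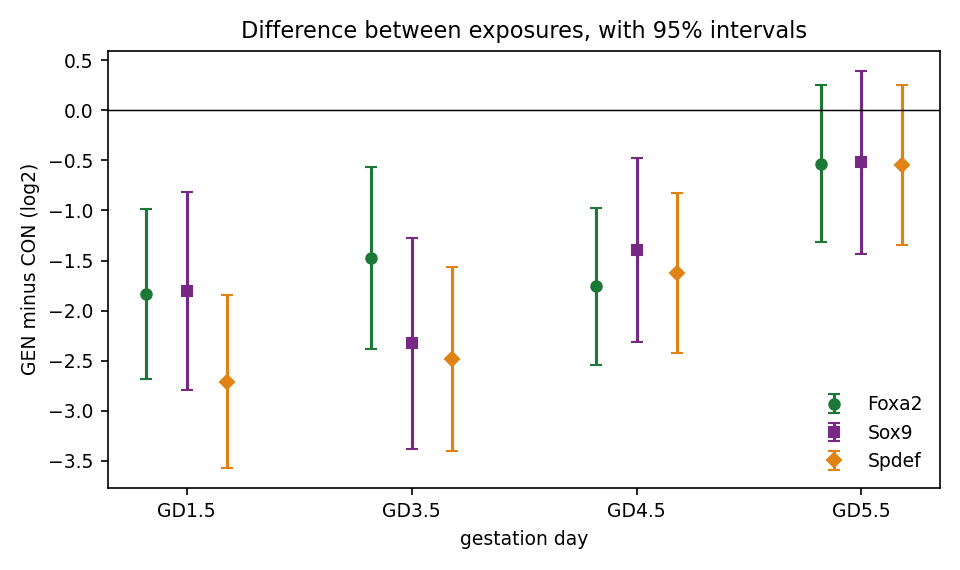
GEN minus CON difference (log2) of each gene by gestation day, with 95% intervals from the fit over all 29 arrays. The differences lie between -2.71 and -1.39 on GD1.5, GD3.5 and GD4.5, and on GD5.5 they are -0.53 (Foxa2), -0.52 (Sox9) and -0.55 (Spdef).

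The order of the 8 groups differed between the genes. Foxa2 was highest in CON at GD1.5 and GD3.5, then in CON at GD4.5, and lowest in both exposures at GD5.5, with the GEN groups of the first 3 days in between. Only GD3.5 CON and GD4.5 CON, of neighbours in that order, did not overlap. All CON groups of Sox9 and Spdef had higher means than all of their GEN groups, and Sox9 was lowest in GEN at GD3.5 while Spdef was lowest in GEN at GD1.5 and GD3.5. Of neighbours in these 2 orders, only the Spdef groups GD4.5 GEN and GD3.5 GEN stood apart, and the rest overlapped. This gap and that of Foxa2 lie across the change of slides, so day and slides cannot be told apart in them. The same limit holds wherever these orders set GD1.5 or GD3.5 beside GD4.5 or GD5.5.

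Between GD4.5 and GD5.5, which cover attachment of the embryo and the first growth of the decidua, Foxa2 fell in CON uteri to a level of -1.23, against 1.04 at GD4.5. The change was -2.27 (standard error 0.38, 95% interval -3.06 to -1.49, adjusted p = 1.31e-04, limma), and on each of the 4 slides it was between -2.31 and -2.23, so the slides differed little. In GEN uteri the change was -1.05 (-1.84 to -0.27) and missed the threshold (adjusted p = 0.0501, and 0.0231 with the replicate number as a block), with -1.42 and -0.98 on the 2 slides that held both days. Of the 3 members, 0 were called in GEN, where 21.7% of all genes were called (8.96% lower), and 1 (Foxa2) in CON, where 30.6% were called (14.3% lower), so a called change was common. The Sox9 difference was -0.28 in GEN (-1.19 to 0.64, adjusted p = 0.684) and -1.15 in CON (-2.07 to -0.24, adjusted p = 0.0518). By its probe with 10 spots the CON change was -1.51 with an adjusted p of 0.0183. Spdef gave 0.34 in GEN (-0.46 to 1.14, adjusted p = 0.555) and -0.74 in CON (-1.54 to 0.056, adjusted p = 0.157). Picking genes that are lower in GEN can favour high CON and low GEN levels at GD4.5. That choice can enlarge a fall in CON and shrink a fall in GEN, and the p-values of these changes do not allow for it.

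Epithelial markers moved with these changes. Of the 12 simple epithelium markers, 5 were called lower at GD5.5 than at GD4.5 in GEN (median -0.64, against 0.085 over all genes) and 8 in CON (median -1.15, against 0.023 over all genes). Of all genes, 8.96% were called lower in GEN and 14.3% in CON. Their summed level, in multiples of the array's 75th percentile, was 64.9 to 108 at GD5.5 and 59.4 to 260 at GD4.5 in GEN uteri, and 73.0 to 97.5 at GD5.5 and 127 to 230 at GD4.5 in CON uteri. Relative to the mean of these markers, the Foxa2 difference was -0.23 in GEN (adjusted p = 0.536) and -0.91 in CON (adjusted p = 0.0135). On that scale Spdef rose by 1.16 in GEN (adjusted p = 0.0268) and stood at 0.62 in CON (adjusted p = 0.155), and Sox9 stood at 0.54 in GEN (adjusted p = 0.255) and at 0.21 in CON (adjusted p = 0.646). The share of these markers in the changes was not tested.

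Between GD1.5 and GD3.5, as estrogen gives way to progesterone, no change of a member was called, while 4.92% of all genes were called in GEN and 2.38% in CON. The Foxa2 difference was 0.29 in GEN (adjusted p = 0.779) and -0.072 in CON (adjusted p = 0.987). Sox9 gave -1.30 in GEN (95% interval -2.29 to -0.31, adjusted p = 0.126) and -0.78 in CON (adjusted p = 0.568). Without GD1.5 GEN 3 the GEN change of Sox9 was -1.72 (adjusted p = 0.0342). Inside slides that held both days it was -0.22 on slide 1, -0.16 on slide 2 and -2.60 on slide 3, so its size rested on slide 3. Spdef gave 0.50 in GEN (adjusted p = 0.597) and 0.27 in CON (adjusted p = 0.913).

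**Figure D4:**
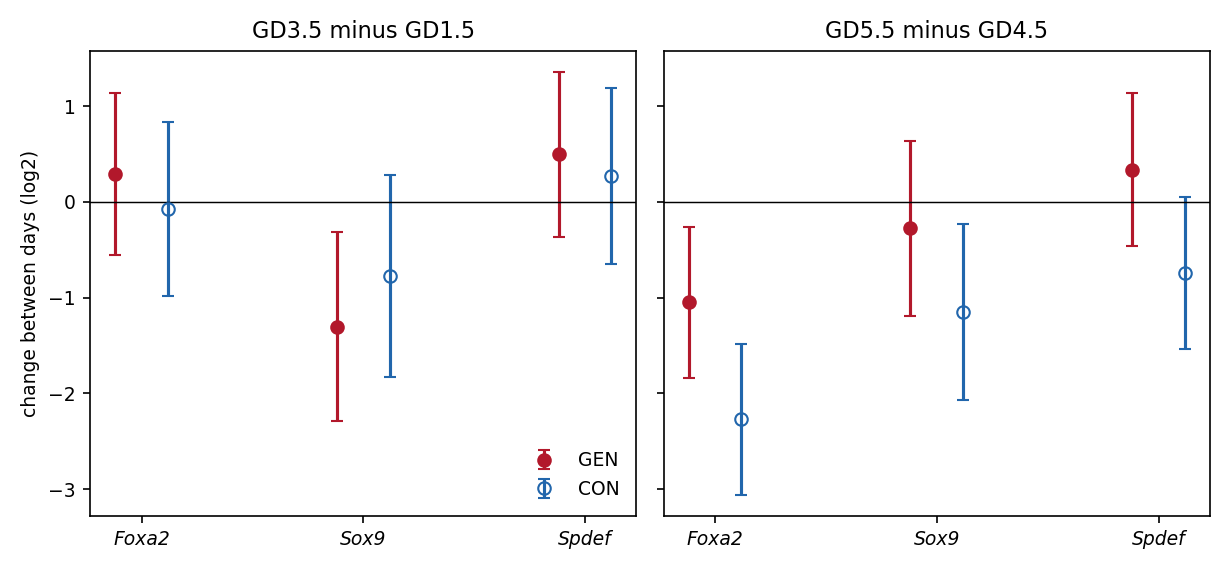
Change of each gene between days (log2, later minus earlier) within GEN (filled) and within CON (open), with 95% intervals. The Foxa2 change of -2.27 in CON between GD4.5 and GD5.5 is the one called of the 12 shown.

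The estimated exposure effects were closer to 0 at GD5.5 than at GD4.5 for all 3 genes, by 1.22 (Foxa2, 95% interval 0.11 to 2.33), 0.87 (Sox9, -0.42 to 2.17) and 1.08 (Spdef, -0.049 to 2.21). The genes were picked on the differences that these values are made of, so they carry no p. Between GD3.5 and GD4.5 the effect differed by -0.28 (Foxa2), 0.93 (Sox9) and 0.86 (Spdef), and between GD1.5 and GD3.5 by 0.36, -0.53 and 0.23. The share of all genes called was 0.00444% between GD4.5 and GD5.5 and 0% in each of the other pair (limma, with 1069 genes at an unadjusted p under 0.05 between GD3.5 and GD4.5 and 498 between GD1.5 and GD3.5).

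Inside the groups, Foxa2 and Spdef varied together in GEN uteri. Over the 15 GEN arrays their deviations from the group means had a Pearson r of 0.868 (permutation p = 0.00112, adjusted p = 0.00672 over 6 relations) and a Spearman rho of 0.814 (permutation p = 0.00132, adjusted p = 0.00792). The GEN arrays with the least Foxa2 of their group on GD1.5 and on GD3.5 had the least Spdef too, both on slide 1. Without these 2 arrays, the farthest from the median, r was 0.742. With the slide means removed it was 0.806, and relative to the simple epithelium markers it was 0.858. The latter takes the same marker mean from both genes, which can raise r by itself. Over the 14 CON arrays, which varied less, r was 0.404 (permutation p = 0.205, adjusted p = 0.308). With the slide means removed the CON value was 0.773 (permutation test, adjusted p = 0.0895), near that of GEN. Relative to the simple epithelium markers it was 0.441 in CON. The difference between the GEN and CON values was not tested.

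No relation of Sox9 with Foxa2 or Spdef passed. In GEN its r was 0.419 with Foxa2 (permutation p = 0.179, adjusted p = 0.308) and 0.181 with Spdef (permutation p = 0.735, adjusted p = 0.735). In CON the values were -0.313 with Foxa2 (permutation p = 0.303, adjusted p = 0.364) and -0.427 with Spdef (permutation p = 0.117, adjusted p = 0.308). Without GD5.5 CON 1 the value with Foxa2 was -0.709 (permutation test, adjusted p = 0.0224). Spearman's rho gave no other call, with adjusted p between 0.229 and 0.517 for these 5 relations. Leaving out the 2 arrays farthest from the median of the first gene gave 0.544 and 0.142 in GEN and -0.634 and -0.311 in CON, in the same order, and 0.335 for Foxa2 with Spdef in CON. As a description, the deviations of the simple epithelium marker mean correlated with Foxa2 at 0.672, with Sox9 at 0.606 and with Spdef at 0.378 over the 15 GEN arrays. Over the 14 CON arrays the values were 0.470 with Foxa2, -0.435 with Sox9 and 0.265 with Spdef, so that of Sox9 had the other sign. For the luminal epithelium marker mean they were 0.593 with Foxa2, 0.450 with Sox9 and 0.355 with Spdef in GEN, and 0.723, -0.586 and 0.527 in CON. The leukocyte marker mean gave -0.544 with Foxa2, 0.136 with Sox9 and -0.610 with Spdef in GEN, and -0.386, 0.613 and -0.195 in CON. The part of these cells in the relations was not tested.

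**Figure D5:**
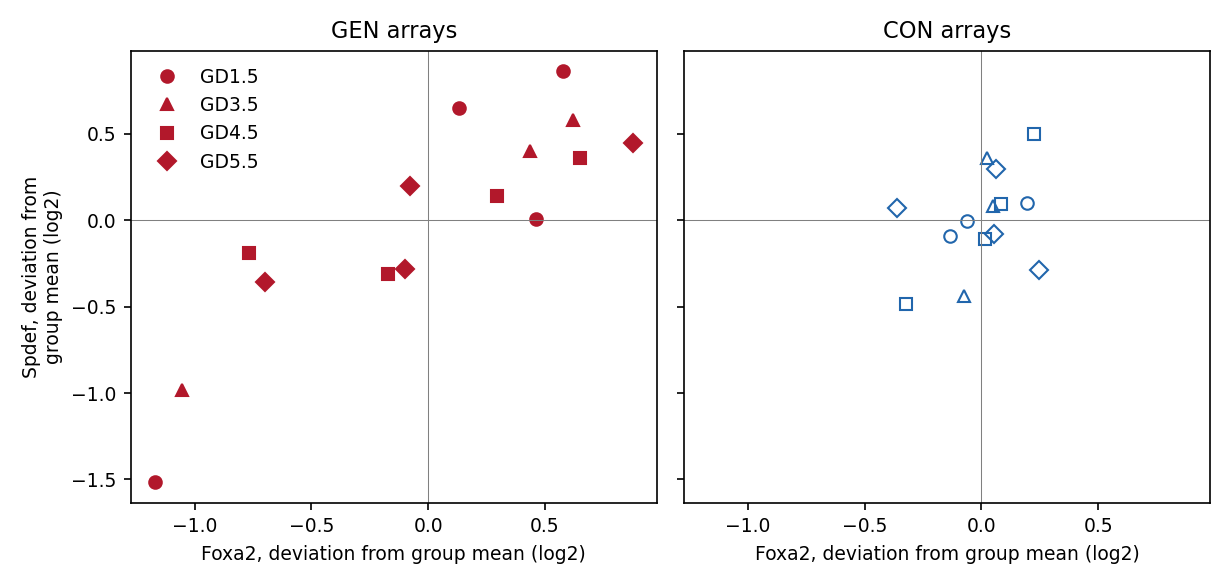
Deviation from the group mean (log2) of Spdef against that of Foxa2 on each array, for the 15 GEN arrays (left) and the 14 CON arrays (right), with a symbol for each gestation day. The GEN points rise together (r = 0.868), and the CON points cover a smaller range (r = 0.404). With the slide means removed, which is not drawn, r was 0.806 in GEN and 0.773 in CON.

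Since Foxa2 and Spdef moved together, the 250 bases upstream of their starts are shown from RefSeq (GRCm38.p6), where 2 of the 3 genes matched, with 4 starts. Sox9 is named only. Searched on both strands were the forkhead letters GTAAANA, with GTAAACA as the stricter form within it, the SOX letters ACAATG, the ETS letters GGAAGT with the longer form CCGGAAG and also CCGGAT, and the palindromic estrogen response element. CCGGAAG can share letters with GGAAGT, and matches are in capitals. Spdef lies at chr17:27728952-27729201 (minus strand) and the Foxa2 start with matches at chr2:148045949-148046198 (minus strand).
Spdef: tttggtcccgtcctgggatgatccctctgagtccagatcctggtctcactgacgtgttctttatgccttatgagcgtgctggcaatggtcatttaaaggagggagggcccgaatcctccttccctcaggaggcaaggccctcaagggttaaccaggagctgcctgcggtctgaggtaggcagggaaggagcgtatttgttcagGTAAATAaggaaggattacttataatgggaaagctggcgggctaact
Foxa2: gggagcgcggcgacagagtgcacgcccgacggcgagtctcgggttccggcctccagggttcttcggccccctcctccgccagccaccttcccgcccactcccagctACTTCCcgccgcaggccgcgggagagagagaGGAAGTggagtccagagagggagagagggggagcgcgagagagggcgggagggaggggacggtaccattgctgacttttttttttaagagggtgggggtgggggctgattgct

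The Spdef window held 1 match to GTAAANA, which begins 47 bases before the start, and this Foxa2 window held 2 matches to GGAAGT, which begin 144 and 113 bases before it. Of 32817 such windows, 10.9% held GTAAANA and 19.7% held GGAAGT. The other searches found 0 matches in the 4 windows, against 3.16% of all windows for GTAAACA, 10.7% for ACAATG, 6.90% for CCGGAAG, 4.94% for CCGGAT and 0.064% for the estrogen response element. The remaining 2 Foxa2 windows held none of the 7 motifs. A match is a run of letters, not a shown site.

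The genes whose levels over the 29 arrays were most like Foxa2, among 15450 compared, were Gulo (r = 0.908), Ildr1 (0.903), Bmyc (0.884), Sbspon (0.879) and Dusp26 (0.877). For Gulo, r was 0.759 over GEN arrays alone and 0.971 over CON arrays alone. Those most like Sox9 were Fxyd3 (0.867), Add2 (0.861), Krt23 (0.853), Car12 (0.849) and Pck1 (0.838), and those most like Spdef were Rptoros (0.838), Mia (0.814), Atp6v1c2 (0.803), Krt23 (0.800) and Asic4 (0.793). Krt23, a keratin, was on both of the last lists, and its r with Spdef was 0.826 in GEN and 0.00841 in CON. Sox9 and Spdef were like each other at 0.679, and Foxa2 stood at 0.359 with Sox9 and at 0.385 with Spdef. These values rest on the same arrays and on differences between groups, and carry no p.

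By deviations from group means, the genes most like Foxa2 were the claudin gene Cldn8 (0.791), Slc25a36 (0.750) and Plekhh1 (0.745). Those most like Sox9 were Pck1, of gluconeogenesis (0.889), Tmem213 (0.870) and Emb (0.841). Pck1 and Tmem213 kept this likeness in both exposures, with 0.893 and 0.869 in GEN and 0.882 and 0.885 in CON. Those most like Spdef were the chemokine gene Cxcl15 (0.729), the Wnt target Axin2 (0.726) and Zfp386 (0.711). Cxcl15, known as a gland product in the mouse uterus, reached 0.881 in GEN and 0.496 in CON.

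The relatives of the 3 factors were read beside them. Of 15 forkhead A, SOX and epithelial ETS genes, 12 or 13 were tested on each day and 0 were called between GEN and CON (medians -0.084, 0.11, -0.39 and 0.092 on the 4 days). Negative differences numbered 8 of 12, 4 of 12, 10 of 13 and 5 of 12, against 52.4%, 55.4%, 56.7% and 51.3% of all genes. As at most 0.116% of all genes were called on any day, 0 calls tell little about this list or those below. The probes of the forkhead gene Foxa3 and of Sox2 were not well above background on any array, and Foxa1 was measured only on the later days. Between GD4.5 and GD5.5, in GEN 4 of 13 were called lower and 1 higher, and in CON 5 were called lower, Elf5 and Etv5 among them. Of all genes, 8.96% were called lower and 12.7% higher in GEN, and 14.3% lower and 16.3% higher in CON. Elf5, an ETS gene of secretory epithelia, had a difference of 0.13 in GEN (adjusted p = 0.868) and fell by 1.54 in CON (adjusted p = 0.0182). That call was lost under 3 of 13 other settings (value as near 0 as -0.18 relative to the epithelial markers) and without GD4.5 CON 1, GD4.5 CON 3 or GD5.5 CON 1 (adjusted p up to 0.0894).

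Of 12 gland products, 9 were on the array and 7 were tested, and of these 6 had a negative difference on the first 3 days and 5 at GD5.5. Of all genes, 52.4%, 55.4%, 56.7% and 51.3% were negative on the 4 days. One was called on each of GD1.5, GD3.5 and GD4.5 (Ttr, the thyroid hormone carrier), whose probe failed to rise well above background in the GEN arrays, so it entered the test through its CON arrays. That filter favours a negative sign for Ttr, which is held in the counts above and the list medians below, so neither is read as a result. Its call was lost under 5 of 12 other settings at GD1.5, 3 of 12 at GD3.5 and 5 of 12 at GD4.5, normexp among them each day. It was also lost without GD1.5 GEN 1, 2 or 3 at GD1.5, and without GD3.5 GEN 4, GD4.5 GEN 1 or 2 or GD5.5 CON 2 at GD4.5. The list medians were -1.26, -2.39, -2.46 and -0.86 on the 4 days. Wfdc3, of the whey acidic protein family, gave -2.46 at GD4.5 (adjusted p = 0.0522). Between GD4.5 and GD5.5, Cxcl15 gave -1.59 in GEN (adjusted p = 0.110) and fell by 2.66 in CON (adjusted p = 0.00685), a call lost under 2 of 12 other settings (adjusted p up to 0.0856). Over the same days Wfdc3 gave -0.90 in GEN (adjusted p = 0.204) and fell by 2.50 in CON (adjusted p = 8.33e-04).

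The 21 regulators of gland development held 0 called genes between GEN and CON on any day (medians -0.14, -0.076, -0.078 and 0.090). Between GD4.5 and GD5.5 in GEN 5 were called lower and 1 higher, and in CON 8 lower and 3 higher. Calls were common on these days, with 21.7% of all genes called in GEN (8.96% lower) and 30.6% in CON (14.3% lower). Msx1, a homeobox gene of the receptive uterus, fell by 1.75 in GEN (adjusted p = 0.00778, and 0.111 with slide as a fixed block) and fell by 2.82 in CON (adjusted p = 5.90e-05). Lgr5, a receptor for R-spondins, fell by 2.36 in GEN (adjusted p = 0.00229) and fell by 2.01 in CON (adjusted p = 0.00333), while with normexp its GEN value was 0.35. The CON call of Lgr5 was lost with normexp (-0.97, adjusted p = 0.114), with the mean over all its probes (-0.67, adjusted p = 0.0720) and relative to the epithelial markers (-0.65, adjusted p = 0.168). Wnt11 rose between GD1.5 and GD3.5, by 1.65 in GEN (adjusted p = 0.0199) and by 2.66 in CON (adjusted p = 0.00119). Its GEN call was lost without GD1.5 GEN 1 or 2 or any one of the GD3.5 GEN arrays (adjusted p up to 0.0862).

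Of 18 genes of mucous secretion, 15 or 16 were tested on each day and 0 were called between GEN and CON (medians -0.075, -0.061, -0.20 and 0.25). Agr2, a disulfide isomerase of mucin folding, rose between GD4.5 and GD5.5 by 2.06 in GEN (adjusted p = 7.52e-04) and by 2.07 in CON (adjusted p = 2.39e-04). Muc1, a surface mucin, fell by 2.79 between GD1.5 and GD3.5 in GEN (adjusted p = 1.95e-04) and fell by 2.88 in CON (adjusted p = 4.63e-04). The 7 cartilage genes known as SOX9 targets held 0 called between exposures (5 or 6 tested, medians -0.0068, 0.10, 0.10 and 0.19), and so did the 8 genes of the steroid receptor axis (medians -0.22, -0.053, 0.028 and -0.15).

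Markers of other cells were read beside the exposure differences. None of the 12 simple epithelium markers was called between exposures (medians -0.15, 0.087, -0.45 and 0.11 on the 4 days), and relative to their mean the GD4.5 differences were -1.28 (Foxa2), -0.92 (Sox9) and -1.15 (Spdef). On that scale the GD3.5 differences were -1.52, -2.38 and -2.53. Simple epithelium markers lower in GEN numbered 9, 4, 11 and 5 of 12 on the 4 days. Of all genes, 52.4%, 55.4%, 56.7% and 51.3% were lower in GEN. The summed level of the 6 adipocyte markers, in multiples of the array's 75th percentile, was 2.61 to 40.6 in GEN and 2.40 to 7.99 in CON at GD1.5, with 6 of 6 markers higher in GEN (median 2.41) and 0 called. That of the 8 leukocyte markers was 26.8 to 114 in GEN and 9.72 to 42.7 in CON at GD1.5, with 7 of 8 higher (median 0.71) and 0 called. Beside both counts, 52.4% of all genes were lower in GEN on that day. Markers of luminal or ciliated epithelium, stroma, smooth muscle and endothelium held 0 called genes between exposures on any day. Smooth muscle markers lower in GEN numbered 1, 0, 8 and 3 of 8 on the 4 days. The part of any of these cells in the differences of the 3 genes was not tested.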

How the data were processed

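The authors deposited scanner tables whose values are processed green intensity per spot, made with Agilent Feature Extraction 9.5 per the submitters' processing notes, from 500 ng of total RNA labelled with Cy3 per the labels. The series table they deposited holds the same intensity values (largest difference 0%). Of 45018 spots, 43379 were not controls. Here log2 intensities were set relative to each array's 75th percentile, spots marked by the scanner as outliers were dropped, spots of a probe were averaged, and the brightest probe stood for a gene. One model over the 8 groups was fitted in limma 3.58.1 (R 4.3.3, statmod 1.5.0, data.table version 1.17.8). The model gave all groups the same spread for a gene, though the Foxa2 SD was 0.066 in GD3.5 CON and 0.92 in GD3.5 GEN. Its intervals and p-values can thus be too narrow or too small for GEN groups that varied more, and the reverse for CON groups that varied less. Moderation of the variance used genes that passed the scanner's background test on 3 or more arrays, and Benjamini-Hochberg adjustment covered the genes measured in the groups compared. A call is an adjusted p under 0.05. Relations used 100000 two-sided permutations within groups. The fit was tested on simulated data. The number of arrays limits the precision. Deviations of same-numbered GEN and CON samples correlated at -0.27 to 0.51, above 0.1 in 5 of 13 pairs, and GD5.5 was the day on which every pair did (0.28 to 0.51). The GD5.5 samples numbered 1, 2 and 4 also shared a slide with their partner, so pairing and slide cannot be told apart for these. The main fit did not pair samples, so its GD5.5 intervals ignore any pairing. The replicate block gave each number the same effect on all days. Named genes were all probes of the members, the 5 and 3 most alike by levels and by deviations, and set members of fixed lists. One marker list is not reported here. Members and lists were chosen with earlier results of these data known. The alternatives are given in the closing section.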

Additional observations from a re-analysis of the deposited data

Results flagged for a closer look

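On the Sox9 probe with 10 spots, GD4.5 GEN 4 stood at -0.79, while the other GEN arrays of that day lay between -2.42 and -2.14. The gap was 0.832 of the group's range, above Dixon's 95% critical value for 4 samples. Of 25 groups checked, 1 passed such a limit, and chance gives about 1 in 20. By the brightest probe the same array stood at -0.38.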

How the results depend on the processing

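Foxa2 in CON between GD4.5 and GD5.5 kept its call in all 42 alternatives, at -2.38 to -2.15 with 1 array left out and at -2.27 to -0.91 otherwise. Of 504 recomputed GEN minus CON values, 500 kept their sign and moved by less than 1 SD. The other 4 came with normexp: -1.43, -1.50, -0.99 and 0.79 for Spdef on the 4 days. Normexp left a higher floor on 3 GD5.5 GEN arrays, whose 10th percentile was -1.97 to -1.45, against -3.96 to -3.53 on the other 13 arrays of slides 5 to 8. On slides 1 to 4 this percentile was also higher on GD3.5 CON 3 (-2.45) and GD3.5 GEN 1 (-3.58), against -4.95 to -4.36 on the rest. With normexp the number of genes called at GD5.5 was 9689 in place of 0, Spdef gave 1.33 in GEN between GD4.5 and GD5.5 (adjusted p = 4.03e-04), with an effect difference of 1.78, and Sox9 gave 0.19, Lgr5 0.35 and the GD3.5 minus GD1.5 effect of Spdef -0.069.

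Other values near the threshold passed under some settings. Foxa2 in GEN between GD4.5 and GD5.5 (-1.05) had an adjusted p of 0.0231 with the replicate block, 0.0381 over probes measured on all arrays, 0.0402 with variance trend and robust estimation and 0.0486 with moderation over each comparison's own genes. The replicate block changed no other call of a member. Sox9 in CON (-1.15) had 0.0386 over probes measured on all arrays, 0.0478 with slide as a random block, 0.0362 on the arrays of the days compared and 0.0426 with variance trend. It gave -1.51 by the probe with 10 spots. Spdef in CON (-0.74) had 0.0405 on the arrays of the days compared. Relative to the epithelial markers, Spdef in GEN gave 1.16 (adjusted p = 0.0268). This scale, the other moderation and the relations on it were added after the data were seen. On it signs turned for Foxa2 in CON between GD1.5 and GD3.5 (0.36), for the Foxa2 effect between GD3.5 and GD4.5 (0.24), for Sox9 between GD4.5 and GD5.5 (0.54 in GEN, 0.21 in CON), for Spdef in CON (0.62), and for the relations of Sox9 with Spdef (-0.0171 in GEN, 0.00726 in CON) and with Foxa2 in CON (0.262). With slide means removed that last one was 0.158, and with slide as a fixed block the GD3.5 minus GD1.5 effect of Sox9 was 0.072. Probes measured on all arrays gave no value for Spdef.

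With 1 array left out, Foxa2 in GEN between GD4.5 and GD5.5 ran from -1.34 to -0.82, and was called without any one of GD1.5 GEN 2 or 4, GD3.5 GEN 1 or 4, GD4.5 GEN 2 or GD5.5 GEN 3 (adjusted p 0.0139 to 0.175 over all omissions). Sox9 in CON ran from -1.27 to -1.02 and was called without GD1.5 CON 1, GD1.5 GEN 1, 3 or 4, GD4.5 GEN 4, or GD5.5 GEN 2 or 3 (adjusted p 0.0321 to 0.136). Sox9 in GEN ran from -0.52 to 0.068 between GD4.5 and GD5.5 (positive without GD4.5 GEN 4) and from -1.72 to -0.93 between GD1.5 and GD3.5 (called without GD1.5 GEN 3). Between GD1.5 and GD3.5 the ranges were -0.10 to 0.82 for Foxa2 in GEN and -0.0095 to 0.99 for Spdef in GEN, with the sign turned without GD1.5 GEN 2, and for Foxa2 also without GD3.5 GEN 4. Foxa2 in CON ran from -0.14 to 0.026 (positive without GD1.5 CON 1). The effect differences ran from -0.030 to 0.89 (Foxa2, GD3.5 minus GD1.5), -0.81 to 0.028 (Foxa2, GD4.5 minus GD3.5) and -0.28 to 0.72 (Spdef, GD3.5 minus GD1.5), turning without GD1.5 GEN 2 or GD3.5 GEN 4. The relation of Foxa2 and Spdef in GEN ran from 0.818 to 0.898 (adjusted p 0.00132 to 0.0259), that of Sox9 and Spdef in GEN from -0.0358 (without GD1.5 GEN 2) to 0.447, and that of Foxa2 and Sox9 in CON from -0.709 (without GD5.5 CON 1, adjusted p = 0.0224) to -0.116.

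The numbers of genes called between exposures ranged from 1 to 34 at GD1.5 (20 as reported), from 4 to 38 at GD3.5 (21) and from 4 to 87 at GD4.5 (25), and at GD5.5 from 0 to 234 with 1 array left out. Between GD4.5 and GD5.5 in GEN they ranged from 1015 with slide as a fixed block to 11743 with normexp (4540), in CON from 4504 to 17047 relative to the epithelial markers (6642), and between GD1.5 and GD3.5 from 345 to 1784 in GEN (1004) and from 118 to 992 in CON (491). For the effect differences they ranged from 0 to 65 (GD5.5 minus GD4.5, 1 as reported) and from 0 to 4 for the other pair. Few arrays and the dim signals of Spdef and of the third Sox9 probe limit what could be detected. The causes of these shifts were not tested.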
